A study of Mus musculus with 6 samples.

Results

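Among the 57180 genes measured in palmitate-treated mouse hepatocytes, 102 long noncoding RNAs (lncRNAs) were well expressed. They were chosen by 2 entries of the deposited table, a gene type of lncRNA and a mean of at least 100 counted reads over the 6 libraries. The table types 11522 genes as lncRNA, of which 3583 had at least 1 count. Because the members were selected on their counts, their abundance is a description and no finding. The mean is taken over both groups and does not use the comparison between them. Just inside the limit were Gm30262, Gm20634 and Morrbid with mean counts of 103.5, 103.0 and 102.8, and just outside were Gm10734, Gm15501 and 2210408F21Rik with 98.5, 97.3 and 94.2.

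The cells were primary hepatocytes from young adult male mice, isolated and then exposed to 0.1 mM palmitic acid (PA), a saturated fatty acid, for 24 h. The controls, STING Loxp (genotype LOXP in the labels), carry floxed alleles of the gene for STING, an adaptor protein that links the sensing of cytosolic DNA to interferon and inflammatory genes. STING LKO mice (genotype KO in the labels) carry the same floxed alleles together with an Albumin promoter that drives the Cre recombinase in hepatocytes. Each group held 3 libraries, all of them with PA, so no untreated cells were compared. Nothing in the sources used here says that the 3 libraries of a group came from separate animals, so p-values measure the spread between these libraries, which may be technical.

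Counted reads ran from 14726983 to 18536985 per library. The gene for STING itself, Sting1, had 16 to 23 counts in STING Loxp and 15 to 24 in the libraries labelled STING LKO (log2 fold change -0.08, adjusted p = 0.883). These counts do not show the knockout. Reads outside the deleted part of the gene would not show the deletion, and whether this holds here was not tested. By RT-PCR, the paper reports that the mRNA was lost in knockout hepatocytes. The label of hepatocytes was checked against 15 defining markers such as Cps1, an enzyme of the urea cycle, and Hnf4a, a transcription factor. Their summed FPKM (reads scaled to gene length and library size) was 10448 to 10819 in STING Loxp. In STING LKO it was 8983 to 9173. By edgeR at an adjusted p under 0.05, 12 of the 15 were lower in STING LKO. Of all tested genes, 11.6% were lower and 11.5% higher by this test. The numbers of markers lower or higher in the other lists are by the same test unless stated. Markers of macrophages summed to 66.7 to 83.6 in STING Loxp against 53.1 to 62.8 in STING LKO, with 2 of 12 tested markers lower, Cd68 and Mpeg1. At an unadjusted p under 0.05, and also by DESeq2, 2 of the 12 were lower and 1 was higher. Cd68 alone had a mean of 29.3 FPKM over the 6 libraries. Cholangiocyte markers summed to 119 to 140 against 61.8 to 72.8, with 3 of 4 tested markers lower, among them Spp1 and Cldn4, and 1 higher. Of the other lists, 1 of 10 sinusoidal endothelial markers was lower (3 lower and 0 higher at an unadjusted p under 0.05, 1 and 0 by DESeq2). Of 9 stellate cell markers, 0 passed edgeR's test (1 higher at an unadjusted p under 0.05, 0 by DESeq2), and 9 of 9 lymphocyte markers were at 0 counts. The part of these cell types in the lncRNA results was not tested. In bulk RNA, fewer cells of a type and less RNA per cell cannot be told apart.

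An lncRNA is a long transcript that encodes no known protein, usually made by RNA polymerase II. Some act as RNAs in the nucleus, such as Neat1, the scaffold of paraspeckles, and some are hosts that carry small nucleolar RNAs (snoRNAs) or microRNAs in their introns or exons. Others run opposite to a protein-coding gene, start from a promoter shared with one, or are retrocopies of one, and for many no function is known. The 102 members hold examples of each kind. Of these genes, 17 span an annotated snoRNA or a related small Cajal body RNA and 5 span a microRNA gene, while 34 overlap a protein-coding gene and 39 overlap no gene of another type.

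Mir17hg was the listed microRNA host that changed, so the sequences its transcript carries are shown here with that of Mir22hg, the other listed microRNA host among the members. The mature sequences are from RefSeq (GRCm38.p6), 5′ to 3′, with the seed, bases 2 to 8, in capitals. The cluster in Mir17hg falls into 4 seeds: miR-17-5p and miR-20a-5p share one, and miR-19a-3p and miR-19b-3p share another.
miR-17-5p: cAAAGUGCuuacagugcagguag
miR-20a-5p: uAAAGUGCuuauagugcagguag
miR-18a-5p: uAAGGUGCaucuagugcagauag
miR-19a-3p: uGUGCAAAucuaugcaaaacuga
miR-19b-3p: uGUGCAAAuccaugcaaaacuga
miR-92a-3p: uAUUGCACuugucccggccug
miR-22-3p: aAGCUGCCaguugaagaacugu

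To find how the lncRNAs differed between the genotypes, all 14151 genes that passed a filter on low counts were fitted together, and each of the 102 members passed it. Calls below are adjusted p under 0.05 from edgeR's quasi-likelihood test, adjusted over all genes tested. In STING LKO, 17 members were lower and 10 were higher. Over all genes tested, 11.6% were called lower and 11.5% higher, and for the members the shares were 16.7% and 9.80%. Protein-coding genes with the same minimum mean count had 13.4% lower and 14.4% higher, and the 578 tested lncRNAs under a mean count of 100 had 8.997% and 2.595%. The median log2 fold change was -0.09 over the members and -0.00 over all genes tested. Among the 39 members that overlap no gene of another type, 10 were lower and 3 higher. The count of lower members was 11 without STING LKO replicate 2. The count of higher members was 5 when replicate 3 of either group was left out, and 6 without STING LKO replicate 1.

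By the study's own criteria for a differentially expressed gene (DEG), which add a log2 fold change beyond 1 and over 1 FPKM on average in either group, 5 members were lower and 1 was higher. The same criteria called 1.49% of all tested genes lower and 0.558% higher. The 3 libraries of each group did not overlap in CPM (counts scaled to the normalized library size) for 27 members that were lower and 21 that were higher, where 20.3% of all tested genes were lower and 20.4% higher in this way. Each of the 27 called members was among these 48.

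**Figure D1:**
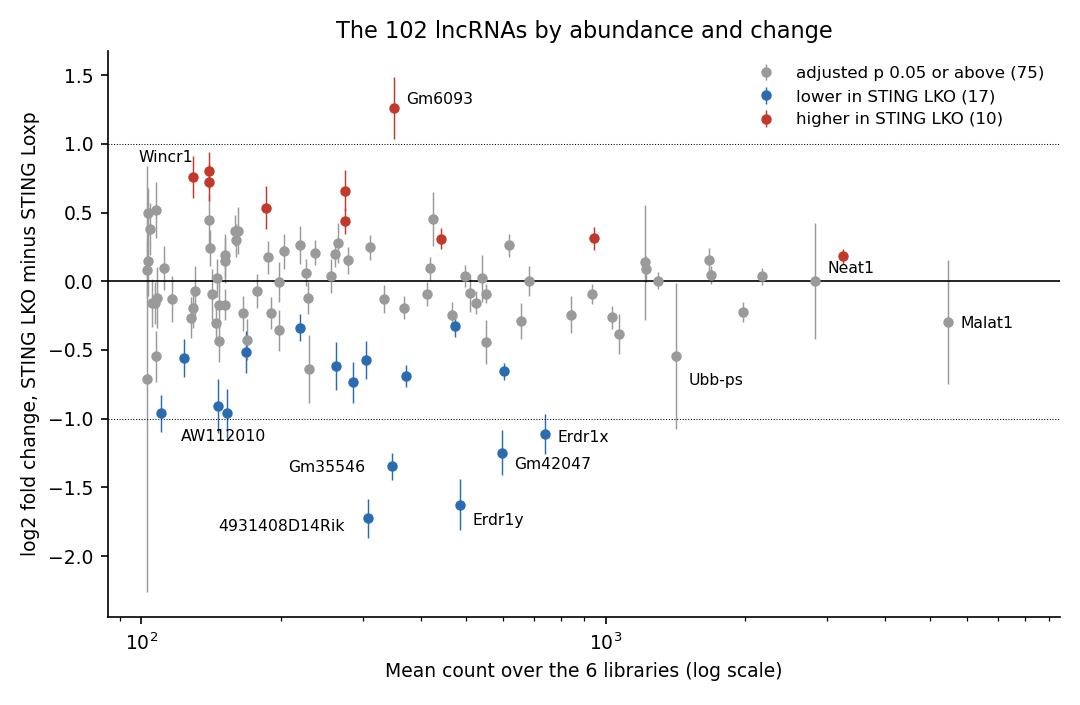
log2 fold change (STING LKO minus STING Loxp, bars are standard errors) of each of the 102 lncRNAs against its mean count over the 6 libraries, on a log scale. Blue points are the 17 lower and red points the 10 higher members, dotted lines mark a log2 fold change of 1 in either direction, and the widest bars among the abundant members belong to Malat1, Neat1 and Ubb-ps.

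The 5 lncRNAs that fell most were 4931408D14Rik, Erdr1y, Gm35546, Gm42047 and Erdr1x, each with every STING LKO library under every STING Loxp library. 4931408D14Rik, an unnamed intergenic transcript on chromosome 19 from 37235740 to 37241516, had 32.1, 24.2 and 34.2 CPM in STING Loxp replicates 1 to 3 and 8.66, 8.89 and 9.84 CPM in STING LKO replicates 1 to 3. The 3 STING LKO values lay close together, far under the lowest control. Its mean fell from 30.1 ± 5.28 to 9.13 ± 0.627 CPM (SD, n = 3), a log2 fold change of -1.72 (SE, its standard error, 0.14, adjusted p = 0.000151). The nearest tested protein-coding gene, Ide, which encodes the insulin-degrading enzyme and lies 4626 bases away, had a log2 fold change of 0.13 (adjusted p = 0.173). Positions are as in the deposited table, for which the submitters' processing notes name GRCm39.

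Erdr1x and Erdr1y are the X and Y entries of Erdr1, a gene of the pseudoautosomal region first described as a regulator of erythroid differentiation, and their sequences are so alike that reads can be assigned to either. Erdr1y had 38.7, 55.1 and 48.1 CPM in STING Loxp and 14.3, 12.1 and 19.6 CPM in STING LKO. Erdr1x had 52.5, 70.2 and 69.9 CPM against 25.8, 28.5 and 34.8 CPM. In both entries the 3 knockout values were under all 3 control values. Fold changes on the log2 scale were -1.62 (SE 0.19, adjusted p = 0.000736) for Erdr1y and -1.11 (SE 0.14, adjusted p = 0.00123) for Erdr1x. Summed over both entries, which does not depend on how the reads were shared between them, the level was 111 ± 17.96 CPM in STING Loxp and 45.0 ± 8.16 CPM in STING LKO, a ratio of 0.404.

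Gm35546 spans 73889 bases of chromosome 1, from 186319522 to 186393410, and overlaps the gene of the growth factor Tgfb2 over 38422 bases. It had 29.3, 30.4 and 35.5 CPM in STING Loxp and 12.5, 12.4 and 12.6 CPM in STING LKO, the narrowest knockout group among the member DEGs. Its log2 fold change was -1.35 (SE 0.10, adjusted p = 8.34e-05), while that of Tgfb2 was -0.15 (adjusted p = 0.291). Gm42047, on chromosome 8 from 122559986 to 122567917, lies 3678 bases from Klhdc4 on the opposite strand. It had 60.8, 50.4 and 49.0 CPM in STING Loxp and 20.6, 18.3 and 28.8 CPM in STING LKO (log2 fold change -1.25, SE 0.16, adjusted p = 0.00134). Klhdc4 had a log2 fold change of -0.02 (adjusted p = 0.905), so the lncRNA fell with no call in the neighbouring gene.

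The single higher DEG was Gm6093, on chromosome 13 from 33746469 to 33753300, near the cluster of Serpinb9 genes, which encode inhibitors of granzyme B and related proteases. It had 16.5, 9.56 and 11.2 CPM in STING Loxp and 32.2, 22.1 and 35.5 CPM in STING LKO. The lowest knockout value was above the highest control value, although the spread within each group was among the widest of the members called. Its log2 fold change was 1.26 (SE 0.23, adjusted p = 0.00577). Serpinb9g, the nearest tested protein-coding gene at 66482 bases, had 21 to 30 counts in STING Loxp and 30 to 41 in STING LKO (log2 fold change 0.29, adjusted p = 0.404). The gene overlaps 1 gene of another type.

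**Figure D2:**
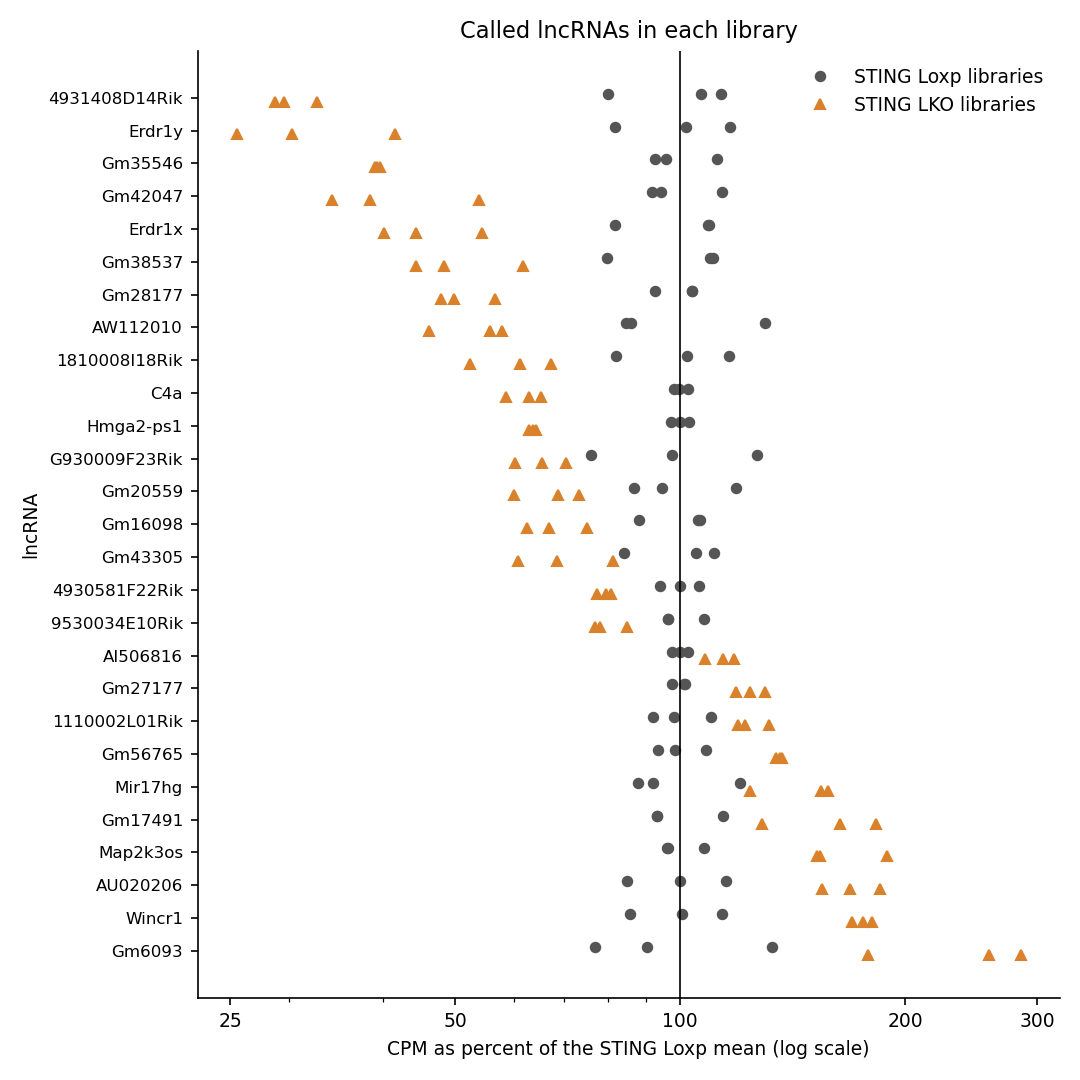
CPM of each of the 27 called lncRNAs in every library, as a percent of that gene's STING Loxp mean, on a log scale, with circles for the 3 STING Loxp and triangles for the 3 STING LKO libraries. In each row the circles and triangles do not overlap, and the rows run from 4931408D14Rik, the lowest in STING LKO, to Gm6093, the highest.

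AW112010, an interferon-inducible transcript of immune cells on chromosome 19 from 11021557 to 11033245, had 10.4, 15.7 and 10.3 CPM in STING Loxp and 6.75, 7.01 and 5.59 CPM in STING LKO. STING Loxp replicate 2 was higher than the other two controls, and the groups did not overlap. The log2 fold change was -0.91 (SE 0.19, adjusted p = 0.0116). This gene is expressed in macrophages too. The sum of the macrophage markers was also lower in STING LKO, as given above, with 2 of 12 tested markers called. Whether this bears on AW112010 was not tested. Gm20559 lies 26129 bases from Samd9l, an interferon-inducible gene, on the same strand. It fell by 0.57 in log2 units (adjusted p = 0.0185), and Samd9l had a log2 fold change of -0.53 (adjusted p = 0.0631), with counts of 1362, 828 and 786 in the controls and of 781, 774 and 763 in STING LKO. Calls of Gm20559 were lost without STING LKO replicate 1 or 2 and on both FPKM scales.

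C4a is typed as an lncRNA in the table and is a near copy of C4b, a gene of the same chromosome that encodes complement component C4. The nearest tested protein-coding gene to C4a was Stk19, 529 bases away on the same strand (log2 fold change -0.27, adjusted p = 0.0616). C4a had 28.7, 29.5 and 28.3 CPM in STING Loxp and 16.9, 18.1 and 18.8 CPM in STING LKO, and each group was tight. The log2 fold change of C4a was -0.69 (SE 0.08, adjusted p = 0.000769) and that of C4b -0.61 (adjusted p = 0.000245). C4b had a mean of 14282 counts and C4a 372, a ratio of 0.0261, so a small share of C4b reads placed on C4a would move its value. Immune and interferon-linked lncRNAs were 5 of the members, with AW112010 lower and Mir17hg higher. The others, Mirt1, Morrbid and Neat1, had log2 fold changes of 0.30 (adjusted p = 0.108), 0.08 (adjusted p = 0.813) and 0.00 (adjusted p = 0.996). Morrbid is named for restraining a death gene in myeloid cells.

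Motifs of the interferon response were looked for in RefSeq's promoter windows (GRCm38.p6, 250 bases before to 50 after the start), which 64 of the 102 members have. The core of the interferon-stimulated response element, GAAANNGAAA, was found on either strand in 3 of the 64 (4.69%) and in 3.99% of all 27025 genes with a window. The gamma-activated site of the interferon response, TTCNNNGAA, was in 3 of the 64 (4.69%) and in 9.55% of all genes. Of the 16 called members with a window, 0 held the first motif and 1 the second. That gene was Wincr1, a higher member. The matches of Wincr1, the called member, and of Lncenc1 and D17H6S56E-5, holders of the first motif, are shown so that the letters can be seen in place. Each is written on the gene's strand with the match in capitals, and a match on the other strand appears as its reverse complement. Wincr1's lies at chr4:89050074-89050102, Lncenc1's at chr13:97434959-97434988 and D17H6S56E-5's at chr17:35000814-35000843.
Wincr1: gcaaatctaaTTCCCTGAAcattggaaga
Lncenc1: atggagtagaTTTCATTTTCtagcgatcac
D17H6S56E-5: tagagcgcggGAAAACGAAAgccctagtgt

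None of the 3 holders of the first motif was called: D17H6S56E-5 had a log2 fold change of -0.38 (adjusted p = 0.0946) and Lncenc1 of 0.44 (adjusted p = 0.138). Rab10os, the remaining member with this motif, also held the second one (log2 fold change -0.20, adjusted p = 0.357).

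The other lower lncRNAs were a mixed group. Gm38537, Hmga2-ps1 and 1810008I18Rik had log2 fold changes of -0.96 (adjusted p = 0.00635), -0.66 (adjusted p = 0.000344) and -0.73 (adjusted p = 0.00915). Hmga2-ps1 is a pseudogene of Hmga2, a chromatin protein of growing cells, inside the span of Sdccag8. It had 45.2, 47.8 and 46.5 CPM in STING Loxp and 29.5, 29.9 and 29.2 CPM in STING LKO, a narrow range in each group, whereas Hmga2 itself had a log2 fold change of -0.18 (adjusted p = 0.201). The gene 1810008I18Rik lies 54022 bases from Pcsk6, a proprotein convertase, which rose by 0.50 (adjusted p = 0.00116) as the lncRNA fell. G930009F23Rik, Gm16098, Gm43305, 9530034E10Rik and 4930581F22Rik fell by 0.32 to 0.62 on the log2 scale, with adjusted p from 0.0232 to 0.0445. Each of these 5 calls was lost in at least 3 of the 13 other settings tried.

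Among the higher lncRNAs after Gm6093, Wincr1 rose most. Wincr1, a transcript named for its induction by WNT signals, had 7.06, 5.31 and 6.24 CPM in STING Loxp and 11.2, 10.5 and 10.9 CPM in STING LKO. The knockout libraries were close together and well above the controls. Its log2 fold change was 0.81 (SE 0.14, adjusted p = 0.00418), while Mtap, a methionine salvage enzyme 52508 bases away on the same strand, had 0.13 (adjusted p = 0.170). AU020206 had 6.74, 4.96 and 5.85 CPM in STING Loxp and 9.87, 9.05 and 10.8 CPM in STING LKO (log2 fold change 0.76, SE 0.15, adjusted p = 0.00902). Its neighbour on the opposite strand, the kinase anchoring protein gene Akap13, fell by 0.36 (adjusted p = 0.0266).

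Map2k3os and Map2k3 are a divergent pair that rose together. Map2k3 encodes a kinase that activates p38, and the spans of the 2 genes in the deposited table lie 90 bases apart on opposite strands of chromosome 11. Map2k3os had 6.24, 6.21 and 6.97 CPM in STING Loxp and 12.2, 9.86 and 9.96 CPM in STING LKO (log2 fold change 0.72, SE 0.14, adjusted p = 0.00724). Map2k3 had counts of 2174, 1888 and 2062 in the controls and of 2782, 3488 and 3248 in STING LKO (log2 fold change 0.45, adjusted p = 0.000846). Every STING LKO library was above every STING Loxp library for both genes. The 188 bases from the RefSeq start of Map2k3os to that of Map2k3 are shown, since both transcripts begin at its ends, on the strand of Map2k3 at chr11:60931867-60932054 (GRCm38.p6), with CpG dinucleotides in capitals. There are 18 of them, and 67.0% of the bases are G or C.
Map2k3os to Map2k3: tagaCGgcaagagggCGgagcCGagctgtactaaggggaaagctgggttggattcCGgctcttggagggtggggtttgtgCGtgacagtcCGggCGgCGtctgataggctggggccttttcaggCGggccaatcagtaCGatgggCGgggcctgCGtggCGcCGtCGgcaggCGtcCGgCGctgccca

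Mir17hg, the host whose microRNAs are shown above and which are known for promoting proliferation, had 11.2, 8.52 and 8.15 CPM in STING Loxp and 14.3, 11.5 and 14.6 CPM in STING LKO. The highest control and the lowest knockout library were nearly equal. The log2 fold change was 0.53 (SE 0.16, adjusted p = 0.0408), and the call was lost when STING Loxp replicate 2 or 3 or STING LKO replicate 1 or 3 was left out, and when genes with as few as 1 count were kept. Mir22hg, the other listed host, had 23.7 to 28.2 CPM in STING Loxp and 24.0 to 25.6 CPM in STING LKO (log2 fold change -0.09, adjusted p = 0.511). The counts are of host transcripts, and mature microRNAs were not measured.

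The remaining higher members were Gm17491, Gm56765, 1110002L01Rik, Gm27177 and AI506816. Gm56765 had 13.3 to 15.4 CPM in STING Loxp and 19.2 to 19.5 CPM in STING LKO (log2 fold change 0.44, adjusted p = 0.0114), and 1110002L01Rik had 47.6 to 56.8 against 61.7 to 67.8 CPM (0.31, adjusted p = 0.0291), a call that was lost without any 1 library other than STING Loxp replicate 1. Gm17491 lies inside the phosphate transporter gene Slc20a2 on the same strand and rose by 0.66 (adjusted p = 0.0152), where Slc20a2 had a log2 fold change of -0.13 (adjusted p = 0.139). The call of Gm17491 was lost without replicate 3 of either group. Gm27177 runs opposite to Loxl2, which encodes an enzyme that crosslinks collagen, over 74219 bases. It had 24.5, 24.6 and 23.7 CPM in STING Loxp and 30.0, 28.8 and 31.5 CPM in STING LKO. The lncRNA rose by 0.31 (adjusted p = 0.0191) and Loxl2 fell by 0.58 (adjusted p = 0.000778). The call of Gm27177 was lost without STING Loxp replicate 3 or STING LKO replicate 1 or 3, with adjusted p up to 0.0722. AI506816, the second most counted member, had 183 to 192 CPM in STING Loxp and 203 to 221 CPM in STING LKO, a log2 fold change of 0.18 (adjusted p = 0.0464) whose call was lost whenever any 1 library was left out.

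A tested protein-coding gene lay within 100 kb of 86 members, and 46 of these pairs (53.5%) had fold changes of the same sign, against 51.6% of pairs for protein-coding genes with a mean count of at least 100 and 59.5% for the lncRNAs of lower count. Of the 23 called members with such a neighbour, 6 (26.1%) had a neighbour that was called too, against 29.4% for those protein-coding genes and 47.5% for the lncRNAs of lower count. The direction was shared by 3 of the 6, where the share was 53.3% for the protein-coding genes and 82.8% for the lncRNAs of lower count. The 3 include Map2k3os with Map2k3, 90 bases apart, and AW112010 with Ccdc86, 94927 bases apart. The direction was opposite for Gm27177, AU020206 and 1810008I18Rik.

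Lists of lncRNAs with known roles gave few calls, where 11.6% of all tested genes were called lower and 11.5% higher. The hosts of snoRNAs, which guide the modification of ribosomal RNA and whose host transcripts are rapidly degraded once translated, had 14 members: none passed the test in either direction by edgeR's quasi-likelihood test. At an unadjusted p under 0.05, 3 were lower and 1 was higher, and by DESeq2 1 was lower, 2410006H16Rik (log2 fold change -0.44). Gas5, a host that spans 10 snoRNA genes, had 109, 98.4 and 100.2 CPM in STING Loxp and 109, 102 and 107 CPM in STING LKO (log2 fold change 0.05, SE 0.07, adjusted p = 0.662). Snhg1, which spans 8, had a log2 fold change of 0.09 (adjusted p = 0.470). The 14 hosts ranged from -0.44 to 0.38 with a median of 0.04, with 6 below and 8 above 0. Outside this list, AI506816 and Gm56765, both higher as given above, each span 1 gene of a snoRNA or small Cajal body RNA. Also outside it, 1110038B12Rik spans 2 and had a log2 fold change of 0.00 (adjusted p = 0.998).

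Snhg12 came nearest among the hosts above 0, with 16.8, 18.3 and 17.7 CPM in STING Loxp and 22.2, 21.1 and 19.3 CPM in STING LKO. Its groups did not overlap, and the adjusted p was 0.0879. Snhg15, with 11.5, 11.2 and 13.6 CPM against 10.2, 7.44 and 9.49 CPM, was the nearest below 0 (log2 fold change -0.42, adjusted p = 0.0755). Proteins of snoRNA particles or of their assembly were a list of 17. Of these, 10 were higher and 0 lower by edgeR (10 and 0 at an unadjusted p under 0.05, 7 and 0 by DESeq2). Gar1 (log2 fold change -0.20, adjusted p = 0.223) and Nop10 (-0.17, adjusted p = 0.231) lay below 0 without a call. Dkc1, the pseudouridine synthase of H/ACA particles, rose by 0.47 (adjusted p = 0.00127), and Snu13, a core protein of box C/D particles, by 0.49 (adjusted p = 0.00235). The difference between the hosts and the proteins was not tested.

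**Figure D3:**
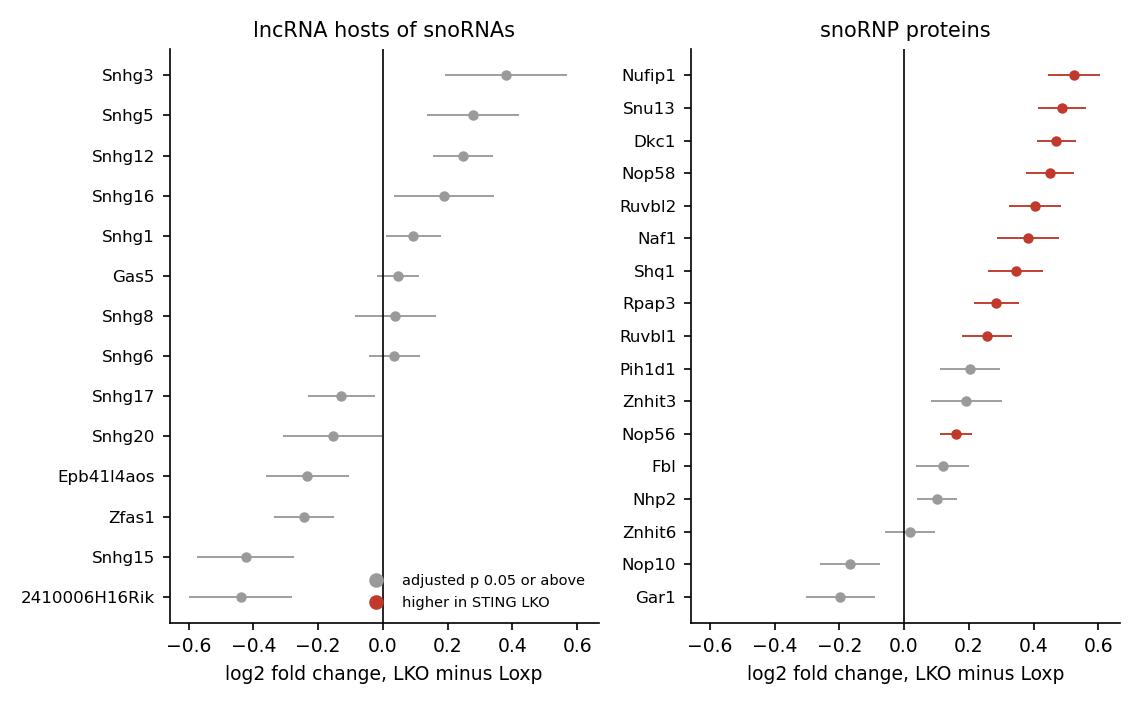
log2 fold changes (STING LKO minus STING Loxp, bars are standard errors) of snoRNA hosts and proteins. The 14 lncRNA hosts are on the left, and 17 proteins of snoRNA particles (snoRNP) or of their assembly on the right. The hosts lie between -0.44 and 0.38 with no call, and 10 of the proteins, in red, were called higher.

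Factors that degrade such transcripts are given beside the shares over all genes tested, 11.6% called lower and 11.5% called higher. Of 18 nonsense-mediated decay factors, 1 was lower and 2 were higher, with Casc3 at -0.56 (adjusted p = 0.000561) and Eif4a3 at 0.32 (adjusted p = 0.00640), both proteins of the exon junction complex. Of 18 proteins of the nuclear exosome and its adaptors, 3 were higher and 0 lower by edgeR (5 and 1 at an unadjusted p under 0.05, 3 and 0 by DESeq2), among them the catalytic subunit Dis3 (0.33, adjusted p = 0.00486) and Exosc8 (0.42, adjusted p = 0.0107).

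The list named for nuclear architecture and chromatin held 6 members: Malat1, Neat1, Norad, Firre, Oip5os1 and Kcnq1ot1. Norad was kept on this list although it is a cytoplasmic RNA. The list gave 0 calls by edgeR's quasi-likelihood test and 0 by DESeq2, with 1, Kcnq1ot1, higher at an unadjusted p under 0.05. Malat1, a nuclear speckle RNA and the most counted member, had 580, 382 and 174 CPM in STING Loxp and 438, 151 and 336 CPM in STING LKO. Each group held both high and low libraries. The means were 379 ± 203 and 308 ± 145 CPM (log2 fold change -0.30, SE 0.45, adjusted p = 0.687). Neat1 had 244, 84.7 and 194 CPM in STING Loxp and 190, 88.6 and 247 CPM in STING LKO, with a low library in each group and means of 174 ± 81.5 and 175 ± 80.03 CPM. A change in either RNA of the size seen in most called members was not detectable with this spread. Of 18 paraspeckle proteins, which assemble on Neat1, 6 were higher and 1 was lower by edgeR. At an unadjusted p under 0.05, 8 were higher and 1 lower, and by DESeq2 6 and 1. Over all genes tested, 11.5% were called higher and 11.6% lower. The 2 with the smallest adjusted p were Sfpq at 0.55 (adjusted p = 0.000186) and Rbm3 at 0.46 (adjusted p = 0.00101). A link to Neat1 was not tested.

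Norad, a cytoplasmic RNA that binds Pumilio proteins, was steady, with 138, 137 and 124 CPM in STING Loxp and 140, 131 and 138 CPM in STING LKO (log2 fold change 0.03, SE 0.06, adjusted p = 0.741). Firre, which is X-linked and organizes chromatin, and Oip5os1 had log2 fold changes of -0.24 (adjusted p = 0.233) and -0.29 (adjusted p = 0.153). The list of imprinted lncRNAs held Kcnq1ot1, which silences neighbouring genes on the paternal chromosome, and Peg13 among the members. Their log2 fold changes were 0.52 (adjusted p = 0.105) and 0.24 (adjusted p = 0.225), and neither was called by edgeR or DESeq2. At an unadjusted p under 0.05, 1 was higher, Kcnq1ot1, the same gene as on the list of nuclear architecture and chromatin. Of the 5 members on the list of DNA damage and growth control, Pvt1 (-0.17, adjusted p = 0.512) and Lncenc1 belong to no other list, and 0 were called by edgeR or DESeq2, with 1 higher at an unadjusted p under 0.05. The list of lncRNAs studied in liver had 10 entries in the table, 3 that were tested and no member.

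Libraries of 1 group differed widely for a few members, most of them abundant. The coefficient of variation was over 40% within a group for 5 of the 102 (4.90%), Gm20634, Gm20186, Ubb-ps, Malat1 and Neat1, against 2.21% of protein-coding genes with a mean count of at least 100. The median over members was 10.9% in STING Loxp and 8.92% in STING LKO, against 7.49% and 5.92% in those protein-coding genes. These sets share the minimum mean count only and were not matched on count, on which this measure depends. The median mean count over the members was 246. Whether lncRNAs vary more than protein-coding genes of equal count was not tested. Ubb-ps, a pseudogene of the ubiquitin gene Ubb (entry ENSMUSG00000121785), had 39.0, 137 and 146 CPM in STING Loxp and 130, 45.7 and 46.2 CPM in STING LKO. Its libraries fell into a low level and a high level in both groups, while Ubb itself had 11180 to 15093 counts and a log2 fold change of -0.00. Gm20186, named after its values were seen, had 147 CPM in STING LKO replicate 1 and 46.1 to 86.9 CPM in the other 5 libraries.

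Gm20634 is the extreme case. Its counts were 0, 36 and 321 in the controls and 0, 261 and 0 in STING LKO, so that 3 of the 6 libraries had none, and a count of 0 allows up to 3. It overlaps the histone genes H2ac18 and H3c14. Counts of H2ac18 were 0, 353 and 96 in the controls and 0, 116 and 0 in STING LKO, with zeros in the same libraries, and H3c14 had 13, 4 and 2 counts against 19, 2 and 20.

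**Figure D4:**
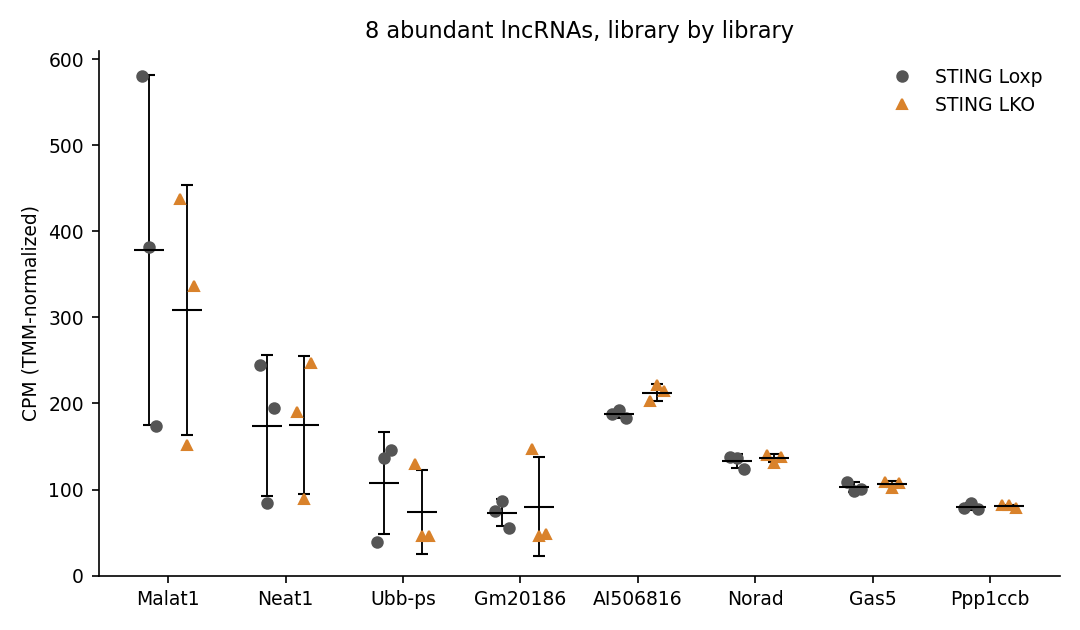
CPM of 8 abundant lncRNAs in each library, with circles for STING Loxp and triangles for STING LKO, and bars for the mean and SD of the 3 libraries of a group. Malat1, Neat1, Ubb-ps and Gm20186 spread widely within groups, while AI506816, Norad, Gas5 and Ppp1ccb lie close together.

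The members highest in FPKM were short transcripts, several of them copies of protein-coding genes. Gm10076 had a mean of 73.5 FPKM, Ndufb4b 72.5, Ppp1ccb 55.8, Ubb-ps 52.7 and Gm56936 47.9. Ndufb4b is a copy of Ndufb4, a subunit of respiratory complex I, and had a mean of 552 counts where Ndufb4 had 31.7. Ppp1ccb, a copy of the phosphatase gene Ppp1cc, had 1294 counts against 435. Gm6793, a copy of Hnrnpa3, had 198 against 99.7. In these 3 pairs, named after their values were seen, the copy had more counts than the gene it resembles, and reads of such pairs may be shared between them by the counting. None of the 6 genes of these pairs was called. Gm56730, Gm56906 and Gm56936, each with a length equal to its span, had log2 fold changes of -0.22 (adjusted p = 0.0590), 0.15 (adjusted p = 0.266) and 0.09 (adjusted p = 0.564). Gm10680, sixth by FPKM, had 0.45 (adjusted p = 0.136).

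Levels compared between lncRNAs depend on the length behind the FPKM. The length that the deposited count and FPKM imply was longer than the gene's whole span for 31 of the 102 members (30.4%), and for 8.12% of the protein-coding genes with a mean count of at least 100. For 92.0% of the genes found in GENCODE M21, this length was within 1% of the sum of all distinct exons of a gene, with bases in overlapping exons of several isoforms counted again. Gas5 spans 4125 bases and had an implied length of 60525 bases, which put it at 1.72 FPKM although it was the sixth most counted member. Malat1 spans 6990 bases and had 27716, for 12.4 FPKM. Of the 18 members with no group mean above 1 FPKM, 2 would be above it with the length held to the span. A fold change of a gene is not affected by its length, and the DEGs were the same in number with the length held to the span or without the FPKM criterion.

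**Figure D5:**
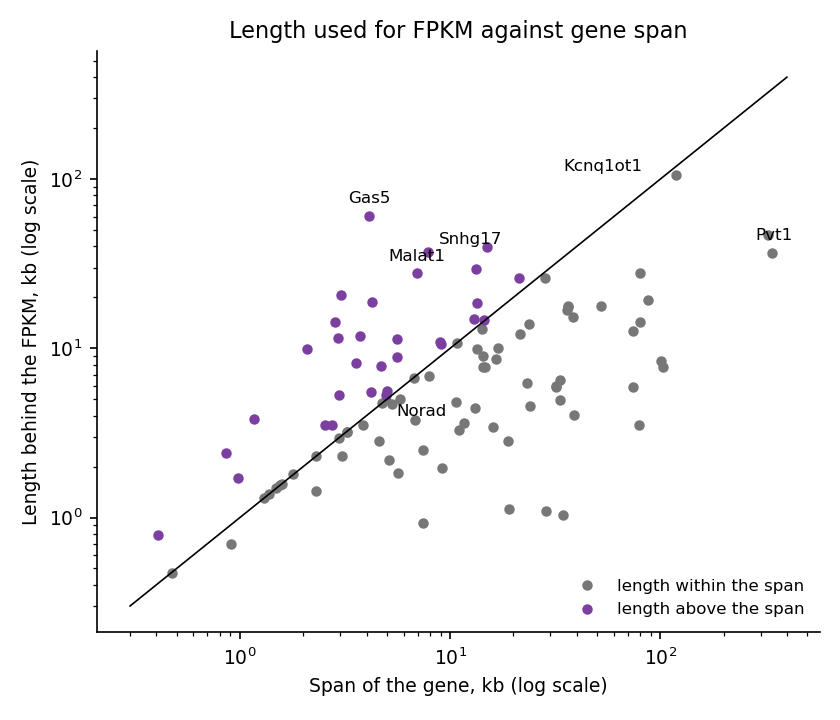
Length behind the FPKM against the gene's span in the table, both in kb on log scales, for the 102 lncRNAs, with a line where they are equal. Purple points above the line are the 31 members with a length above the span, among them Gas5 and Malat1.

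Together the members took 0.315% to 0.359% of counted reads in STING Loxp and 0.270% to 0.342% in STING LKO. The means were 0.333% ± 0.0232 and 0.313% ± 0.0380 (SD, n = 3), with p = 0.6 by exact permutation of the libraries (two-sided, smallest possible p 0.1). Malat1 held 5.49% to 16.1% of the members' counts in STING Loxp and 5.62% to 12.97% in STING LKO, and without it the shares were 0.288% to 0.301% and 0.255% to 0.298%.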

How the data were processed

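RNA was sequenced as 150 bp paired-end reads in 6 libraries, and the authors mapped them with HISAT2. The submitters' processing notes also name fastp, StringTie, edgeR and GRCm39. The counting tool, annotation release and strand setting are not given in the sources used here. The deposited table gives raw counts and FPKM per gene, and 12 columns of values were used. Counts were analysed with edgeR 4.0.16 in R 4.3.3: filterByExpr (minimum count 10, by group), TMM and a two-sided quasi-likelihood test, p-values being adjusted by Benjamini-Hochberg over 14151 genes. CPM are counts scaled to the TMM-normalized library size. FPKM served for levels and as an alternative in limma 3.58.1. The steps were tested on simulated data with 200 changed genes. Strand and exons came from GENCODE M21, which held 79 of the 102 members, and sequences from RefSeq.

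The members and lists were chosen with earlier results of these data known. Named were the 10 members highest in FPKM and in counts, the 12 lower and 12 higher calls with the largest changes, and every DEG. The members on the lncRNA lists and the nearest tested protein-coding genes of some called members were named too. So were the genes beside the limit and the 2 smallest adjusted p of each other list. The values of 1 called member and its neighbouring gene are not reported here. Genes beyond this rule were named after their values were seen. They include the further lower calls Gm20559 (with its neighbour Samd9l), Gm16098, Gm43305, 9530034E10Rik and 4930581F22Rik. The others were motif holders, copies, overlapping histone genes, Gm20186 and 1110038B12Rik. Alternatives were DESeq2 1.42.0, other filters and scaling, a replicate block, limits of 50 and 200 counts, members overlapping no other gene, and each library left out. Intervals and floors for counts cover counting error only.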

Additional observations from a re-analysis of the deposited data

How the results depend on the processing

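Of the 27 called members, 16 were called under each of the 13 other settings of filter, scaling, tool, block and left-out library, 11 lost the call in at least 1, and none changed sign. Of 34 named members without a call, 6 gained one in at least 1 setting. With each library left out in turn, lower members numbered 11 to 17, higher members 5 to 10, lower DEGs 5 to 7 and the higher DEG 1, the median log2 fold change of the members ran from -0.0968 to -0.00875, and the difference in their share of reads ran from -0.0346 to 0.0015 percentage points. The share difference turned positive without STING LKO replicate 2 (exact p = 0.9). Kept to members that overlap no gene of another type, there were 10 lower and 3 higher members, 0 higher DEGs and a median of -0.16. With a limit of 50 counts there were 16 higher members and with 200 there were 6. The median was -0.0267 with limma on log2(FPKM + 1). The causes were not tested, beyond the fewer samples or genes each setting holds. The same-number libraries had correlations of 0.12, 0.0834 and 0.0134 in their deviations from the group means. Those of unlike numbers ran from -0.1311 to 0.0459. Each STING LKO library correlated best with its own number. These values are small and do not settle whether the numbers pair the libraries. With the replicate number as a block, 17 members were lower, 10 higher, 5 lower and 1 higher were DEGs, the median was -0.09 and 45 neighbours shared a sign. STING Loxp replicate 3 did not correlate best with its own number. At 3 libraries a group, the spread between libraries limits what can be said of members such as Malat1 and Neat1.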
